A study of Isostichopus badionotus with 6 samples.

Results

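The 200 assembled transcripts described here were those whose levels followed the myosin heavy chain locus most closely in the body wall of 6 captive sea cucumbers, *Isostichopus badionotus*. They were chosen by their measured values: among transcripts of at least 500 nt, with a mean of at least 5 CPM (counts scaled to a common library total) and a standard deviation (SD) of log2 CPM of at least 1 over the 6 animals, they had the highest Pearson r with the summed level of Locus_371, whose named transcript matched a striated muscle-like myosin heavy chain of the starfish *Acanthaster planci*. The 200 were taken from 3224 transcripts that passed these filters, out of 129776 counted ones. Locus_371 itself and the loci Locus_72, Locus_831, Locus_5720, Locus_761, Locus_12, Locus_571, Locus_1055 and Locus_2435 were left out by the same rule. The correlations and the shape of the profile are therefore how the transcripts were found, and they are given as a description without a test.

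By the sample labels, 4 animals were juveniles kept in captivity, here juveniles 1 to 4, and 2 were adults adapted to captivity, here adults 5 and 6. The design text of the series calls all 6 farmed juveniles, and the age of each animal was not given in the labels. No treatment, allele or strain set the animals apart, each animal gave 1 library, and several pieces of eviscerated body wall were pooled per animal, so the values are those of bulk tissue. Stage and adaptation to captivity changed together, so they cannot be told apart in the comparison of juveniles with adults.

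The sea cucumber body wall is mostly collagen-rich dermis, with circular and longitudinal muscle on its inner side. In muscle, myosin heavy chain forms the thick filaments that pull on actin, and contraction is set by calcium, which the sarco/endoplasmic reticulum calcium ATPase (SERCA) pumps back into its store so that the fibre can relax. Filamins, alpha-actinin and smoothelins bind or cross-link actin filaments, and ankyrins tie membrane proteins to the cytoskeleton beneath.

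Counts per library summed to between 21714696 and 31742950. Levels are given below as CPM on totals scaled by TMM, a scaling that assumes most transcripts are unchanged. Its factors were between 0.973 and 1.32 in 5 animals and 0.586 in adult 6, so statements on adult 6 depend on the scaling. The filters and the choice of the 200 used plain totals, from which 3224 transcripts passed, against 1949 on TMM-scaled totals. Adult 6 was the lowest animal for 1706 of the 3224 from plain totals and for 1207 with TMM. The transcripts not chosen, used below for comparison, therefore depend on the scaling. Loci with a mitochondrial match held 21.5% of the counts of juvenile 2 and between 14.0% and 14.6% in the other juveniles,, with 20.1% and 21.7% in the adults. The 10 most abundant transcripts held between 16.2% and 34.8% of a library, with the highest share in adult 6. A locus matched to 28S ribosomal RNA held 5.43% of the counts of juvenile 3 and 8.85% in adult 6, against between 0.488% and 1.06% in the other juveniles and 2.25% in adult 5.

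The myosin heavy chain locus, the reference of the choice, stood at 5605, 245, 975 and 5576 TMM-scaled CPM in juveniles 1 to 4 and at 6996 and 6255 in adults 5 and 6. On this scale juveniles 2 and 3 were low and the other 4 animals were high and close to each other. The highest juvenile was 22.9-fold above the lowest, so the large contrast lay among the juveniles and not between the stages. From plain totals, which the choice used, the levels were 6292, 255, 1104 and 7371 CPM in juveniles 1 to 4. They were 6805 and 3667 CPM in adults 5 and 6, so adult 6 then lay well below juveniles 1 and 4 and adult 5. In this bulk tissue a smaller number of muscle cells and less RNA per muscle cell cannot be told apart.

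The median level of the 200 transcripts was 19.2, 1.54, 7.61 and 26.1 TMM-scaled CPM in juveniles 1 to 4, with 20.0 and 17.7 in adults 5 and 6. Juvenile 2 was the lowest animal for 195 of them and juvenile 3 for the other 5. For 3 of the 200 both of these juveniles had no count. Such ties were counted as lowest in juvenile 2 and second lowest in juvenile 3, also from plain totals. Juvenile 3 was the second lowest for 168, and the highest animal was juvenile 4 for 84, juvenile 1 for 46, adult 6 for 38 and adult 5 for 32. From plain totals juvenile 2 was the lowest for 196, but juvenile 3 was the second lowest for only 120 and adult 6 for 72. Over all 3224 transcripts that passed the filters, the 200 included, juvenile 2 was the lowest for 1165 with TMM. From plain totals it was the lowest for 886 of the 3224. Myosin was lowest in juvenile 2, so the higher share among the 200 is part of how they were chosen. Together the 200 held 2.41%, 0.236%, 0.607% and 2.88% of all counts in juveniles 1 to 4, with 2.85% and 1.55% in adults 5 and 6.

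**Figure D1:**
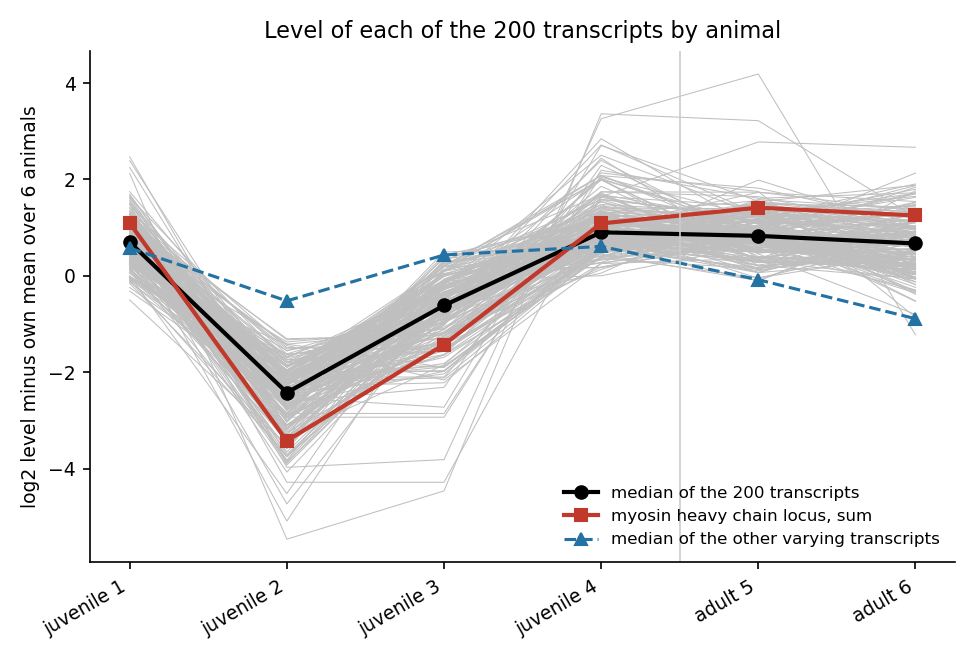
Each grey line is 1 of the 200 transcripts, with its log2(TMM-scaled CPM + 0.5) in each animal minus its own mean over the 6 animals; the black line is their median, the red line the myosin heavy chain locus and the dashed blue line the median of the 3024 other transcripts that passed the filters. Lines only join the values of 1 transcript and imply no order of the animals. The black median is -2.42 in juvenile 2 and -0.61 in juvenile 3 and lies between 0.67 and 0.90 in the other animals. The blue median is lowest in adult 6, at -0.89, and next lowest in juvenile 2, at -0.52.

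Levels in juveniles 2 and 3 were both below those of the other 4 animals for 173 of the 200 transcripts, and for 124 from plain totals. The same held for 1.59% of the 3024 transcripts that passed the filters without being chosen, which the choice itself brings about. The mean of juveniles 1 and 4 was a median of 11.9-fold above juvenile 2 over the 189 transcripts with a count in juvenile 2, and at least 3.23-fold for each of those 189. The other 11 transcripts had no count in juvenile 2, which allows up to 3 counts, or 0.132 TMM-scaled CPM, and with these set to that limit the median was 12.5-fold. In juvenile 2, 41 of the 200 had under 10 counts and their median count was 35, against medians between 258 and 980 in the other libraries, so the lowest point of many profiles rests on few reads.

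The correlations ran from 0.832 to 0.995 with a median of 0.919, and 117 of the 200 had an r of 0.9 or more. Over all 3024 transcripts not chosen the median r was 0.18. At the lower limit of the choice, transcripts 8 of Locus_1496, 9 of Locus_207 and 8 of Locus_5096 were just inside with r of 0.833, 0.832 and 0.832, and transcripts 1 of Locus_13611, 4 of Locus_13178 and 8 of Locus_846 were just outside with 0.828, 0.828 and 0.827. Between pairs of the 200 the median r was 0.90 and the lowest 0.43. All of these points come from the same 6 libraries.

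A large part of the correlation came from juvenile 2. Without it, r over the other 5 animals had a median of 0.79 over the 200, with a lowest value of -0.02, and 95 of them stayed at 0.8 or more, whereas 31 were under 0.5. When the choice was repeated without juvenile 2, 69 of the 200 were chosen again, against between 141 and 166 when any other single animal was left out. Without both juveniles 2 and 3, which was tried after the data had been seen, 3 were chosen again. The higher mitochondrial share of juvenile 2 and the higher 28S share of juvenile 3 stand beside this result, and their part in it was not tested.

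**Figure D2:**
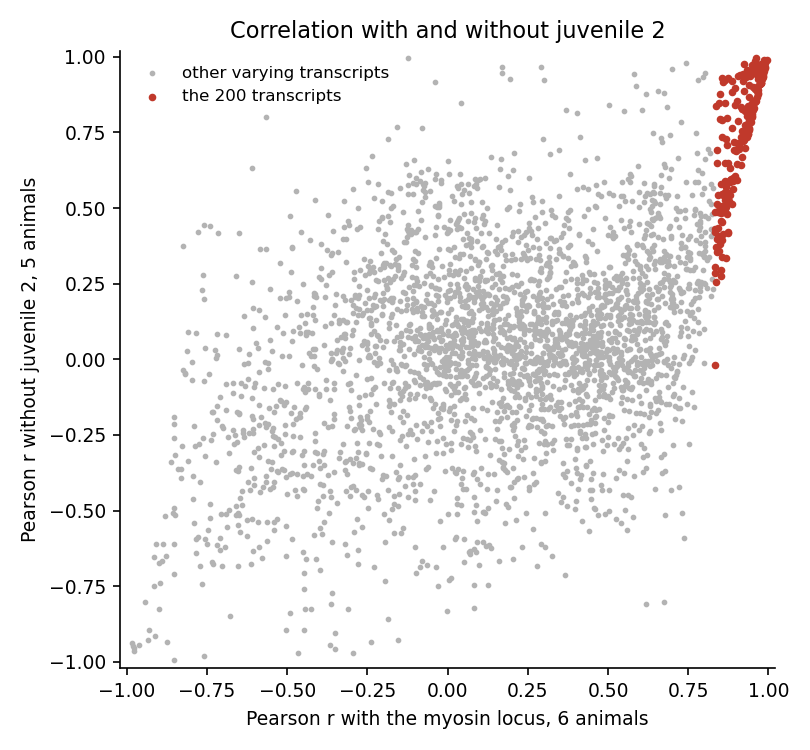
Each point is 1 of the 3224 transcripts that passed the filters, with Pearson r to the myosin heavy chain locus over 6 animals on the x axis and over 5 animals, without juvenile 2, on the y axis. The 200 chosen transcripts, in red, start at 0.832 on the x axis by the rule and spread from -0.02 to above 0.99 on the y axis.

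Names were held for 326 of the counted transcripts, all from the study's list of transcripts that differed between wild and farmed animals, so the lack of a name says nothing about a transcript. Of the 200, 4 carried a name, 9 others belonged to a locus in which another transcript was named, and 187 had neither. All 4 named ones were in the muscle list: filamin-C-like, filamin A, SERCA and smoothelin like 1. Filamin A is not particular to muscle. These names are the nearest database matches in other animals, and their roles are known mainly from vertebrates.

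Filamin was the name with the most transcripts among the 13 in named loci, with 4 transcripts of the single locus Locus_560. The filamin-C-like transcript 2 of 4320 nt, matched to the form that vertebrate muscle uses, stood at 237, 29.4, 90.4 and 394 TMM-scaled CPM in juveniles 1 to 4 and at 531 and 515 in the adults. Juvenile 2 was the lowest and both adults were above every juvenile, although from plain totals both adults were below juvenile 4, at 516 and 302 against 521 CPM. The filamin A transcript 18 of 3524 nt stood at 75.3, 15.7, 17.8 and 79.5 in the juveniles and at 116 and 120 in the adults. Here juveniles 2 and 3 were nearly level, whereas the filamin-C-like transcript was about 3-fold higher in juvenile 3 than in juvenile 2. The unnamed transcripts 30 and 17 of this locus had r of 0.987 and 0.989, among the 10 highest, and the former ranged from 28.4 in juvenile 2 to 348 in adult 6. The latter fell to 0.57 TMM-scaled CPM in juvenile 2, which was 13 counts.

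Ratios within a library do not depend on the scaling between libraries. Filamin-C-like transcript 2 had 0.891, 1.04, 1.77 and 1.84 counts for each count of transcript 30 in juveniles 1 to 4, with 1.61 and 1.48 in the adults. These 2 transcripts of 1 locus thus kept no fixed ratio, and juveniles 1 and 2 had the lowest values. The 4 chosen transcripts held 96.8% of all counts of Locus_560, and the remaining long and expressed one, transcript 9, had an r of 0.65 and an SD under the limit.

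Actin, the filament on which myosin pulls, is the name of the locus with the 2 transcripts of highest mean CPM among the 200. These were transcripts 24 and 35 of Locus_688, in which another transcript matched an actin mRNA of the sea cucumber *Apostichopus japonicus*. Transcript 24 of 729 nt stood at 4043, 589, 729 and 3922 TMM-scaled CPM in juveniles 1 to 4 and at 8101 and 7083 in adults 5 and 6. Transcript 35 of 564 nt stood at 1684, 210, 295 and 1573 in the juveniles and at 2997 and 2599 in the adults. Both were low in juveniles 2 and 3 and highest in the adults, although from plain totals adult 6 was below juvenile 4, at 4152 against 5184 CPM for transcript 24. The counts of transcript 24 were between 2.40 and 2.80 times those of transcript 35 in each of the 6 libraries. Per kilobase, transcript 24 had the highest mean level of the 200, at 5593 TMM-scaled CPM per kb.

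The other 4 long and expressed transcripts of the actin locus did not share this profile. The named transcript 49 stood at 112, 157, 76.1 and 96.5 TMM-scaled CPM in the juveniles and at 152 and 190 in the adults, with an r of -0.11. Transcript 133 was highest among the juveniles in juvenile 2, at 487 against between 151 and 278 in the others, with an r of -0.66. The 2 chosen transcripts held 56.6% of the counts of the locus, in which 34 transcripts were counted and 6 were long and expressed. Summed over the locus, the level was 9451, 2845, 2558 and 9665 TMM-scaled CPM in juveniles 1 to 4. It was 18363 and 16806 in the adults, with an r of 0.915. The sum was thus low in juveniles 2 and 3, unlike these 4 transcripts. Only uniquely matching reads were counted, and actins are a family of close copies, so how reads were divided between these transcripts is uncertain.

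**Figure D3:**
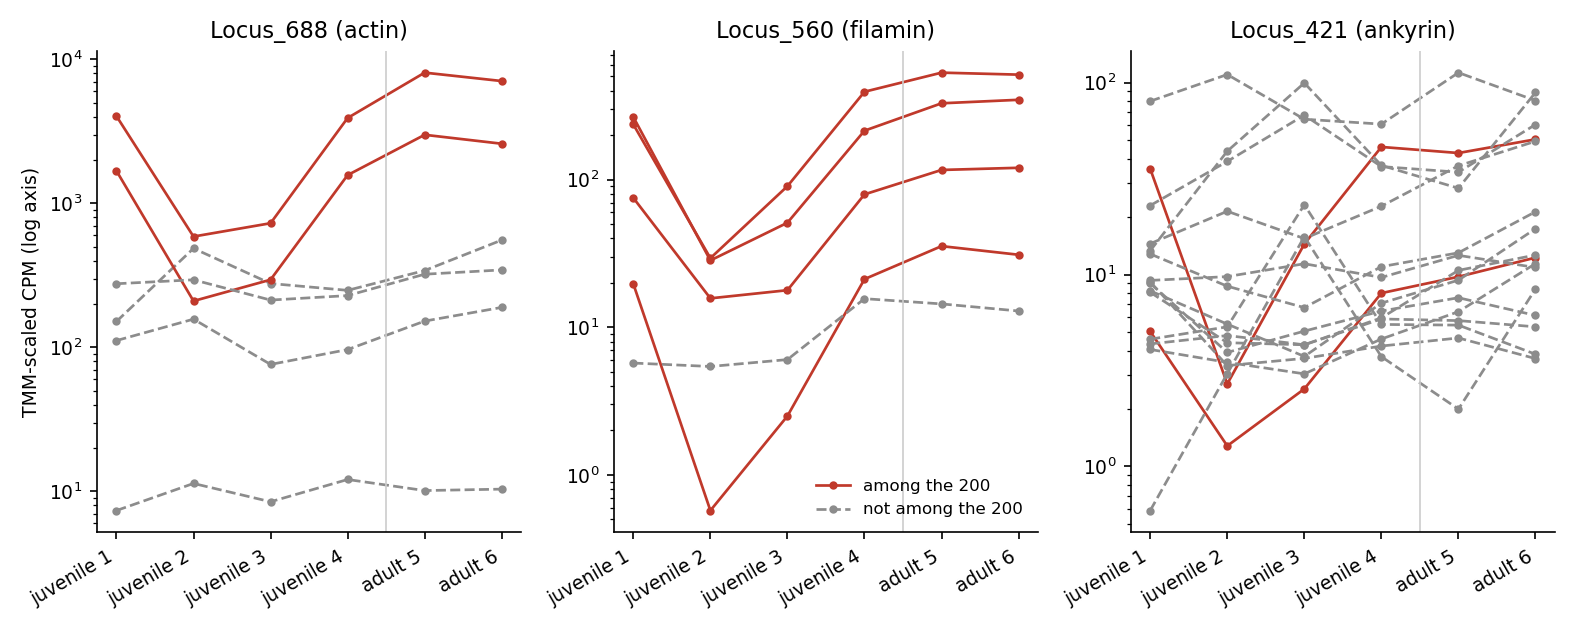
The panels show the level of each long and expressed transcript of the actin Locus_688, the filamin Locus_560 and the ankyrin Locus_421 in the 6 animals, as TMM-scaled CPM on a log axis; red solid lines are among the 200 and grey dashed lines are not. In Locus_560 the 4 red lines dip together in juvenile 2, and in Locus_688 and Locus_421 the 2 red lines of each dip there while most grey lines stay nearly level or rise.

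SERCA was represented by transcript 9 of Locus_512, of 4867 nt, with 58.2, 11.7, 29.8 and 73.6 TMM-scaled CPM in juveniles 1 to 4 and with 89.3 and 75.7 in the adults. Juvenile 2 was lowest, juvenile 3 lay between it and the other 4 animals, and the adults were slightly above every juvenile. From plain totals both adults were below juvenile 4, at 86.8 and 44.4 against 97.3 CPM. Its range was narrower than that of myosin, 6.30-fold among the juveniles. A further transcript of the locus, number 17, had an r of 0.91 but an SD under the limit, so that SERCA counts outside the 200 had a similar profile.

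Smoothelin like 1, a relative of an actin-binding protein of vertebrate smooth muscle, was represented by transcript 17 of Locus_3117, with 23.3, 0.93, 7.69 and 22.9 TMM-scaled CPM in juveniles 1 to 4 and with 20.8 and 11.7 in the adults. Unlike the filamins and transcripts 24 and 35 of Locus_688 on this scale, it was not highest in the adults, which lay within the range of the juveniles. The value of juvenile 2 rested on 21 counts. The longer transcript 25 of the same locus stood at 163, 17.1, 47.7 and 137 in the juveniles and at 127 and 94.9 in the adults. It gave the same order of low and high animals, except that juvenile 1 was further above juvenile 4.

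Ankyrin was represented by transcripts 105 and 123 of Locus_421, in which other transcripts matched ankyrin-2-like and ankyrin-3-like mRNAs. Transcript 105 stood at 35.5, 2.69, 14.4 and 46.2 TMM-scaled CPM in the juveniles and at 43.0 and 50.6 in the adults. Transcript 123 was low, at between 1.28 in juvenile 2 and 12.2 in adult 6. The 2 held 5.18% of the counts of this locus, of which 16 transcripts were long and expressed, and the named transcripts 132 and 146 had r of 0.37 and 0.61. The sum over the locus had an r of -0.38, so the profile was that of these transcripts and not of the locus. Transcripts 76 and 82 of Locus_1428, both with an r of 0.864, also belonged to a named locus, but the match was to a genome scaffold of a nematode and gives no gene.

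The other transcripts of the muscle list did not pass into the 200. The muscle list held 9 named transcripts beside the myosin locus, of which 8 had 500 nt or more and 4 were chosen. Leiomodin 3, which starts actin filaments in vertebrate muscle, had an r of 0.69 and ranged from 4.68 TMM-scaled CPM in juvenile 2 to 12.9 in juvenile 4. Calpain 3, a muscle protease of vertebrates, had an r of 0.26 and ranged from 5.21 to 13.2. Alpha-actinin-2, which cross-links actin filaments at their anchoring discs, had an r of 0.16 and stood at 71.6, 71.1, 28.3 and 52.3 in juveniles 1 to 4 and at 76.9 and 57.6 in the adults. It was not low in juvenile 2. Cardiac alpha actin 1 had an r of -0.60 and was highest in juvenile 2, at 30.4 against between 14.4 and 23.8 in the other animals. These 4 had an SD of log2 CPM under 1, so the filter on spread would have left them out whatever their r.

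**Figure D4:**
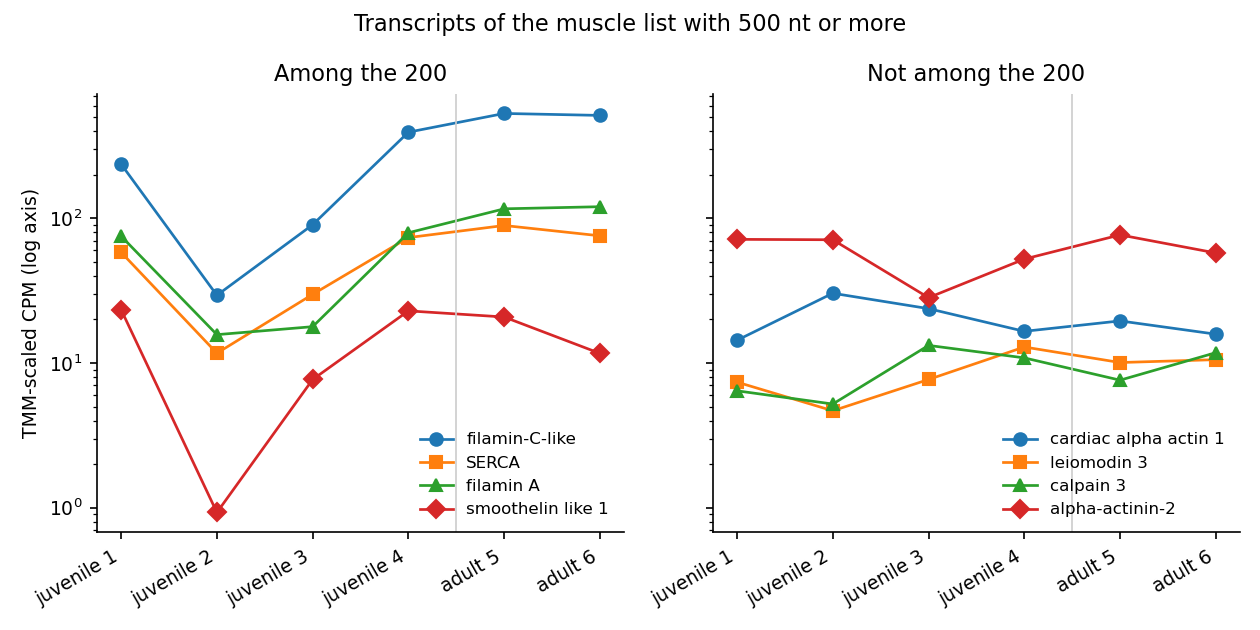
The level of each named muscle-list transcript of 500 nt or more is shown by animal as TMM-scaled CPM on a log axis, on the left for the 4 among the 200 and on the right for the 4 that are not. On the left each line is lowest in juvenile 2, whereas on the right alpha-actinin-2 is lowest in juvenile 3 at 28.3 and cardiac alpha actin 1 is highest in juvenile 2 at 30.4.

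Summed over all 9 named muscle-list transcripts, the level was 510, 196, 239 and 681 TMM-scaled CPM in juveniles 1 to 4. It was 901 and 841 in the adults, and none of the 9 was at 0 in any animal. Of these sums the filamin-C-like transcript alone gave 237, 29.4, 90.4 and 394 in juveniles 1 to 4, with 531 and 515 in the adults. The 4 chosen transcripts follow myosin by the rule, so nothing is read from the sum. Among the juveniles, 6 of the 9 were lowest in juvenile 2, these 4 included, and 2 were highest there. For the other lists the filters left almost nothing to choose from: no transcript of the cilia, neural, immune, metabolic, endoplasmic reticulum folding, vesicle transport and ribosomal lists passed them, against 1 of 19 of the actin cytoskeleton and adhesion list and 2 of 13 of the matrix list, and none of those 3 was among the 200. The lack of these lists among the 200 therefore says nothing about them. In juvenile 2 the 6 cilia transcripts summed to 54.8, against between 22.7 and 38.3 in the other juveniles and 25.1 and 19.1 in the adults, but 42.0 of the 54.8 came from axonemal dynein heavy chain 10, and 2 of the 6 were lowest in juvenile 2 among the juveniles and 2 highest. The 7 immune transcripts summed to 790 in juvenile 2, against between 404 and 564 in the other juveniles and 879 and 1248 in the adults, of which a dual oxidase 2-like transcript gave 646, while 4 of the 7 were lowest in juvenile 2 among the juveniles. The 13 matrix transcripts summed to 206 in juvenile 2, within the 134 to 358 of the other juveniles, and to 494 and 590 in the adults. The part of these lists in the low values of juvenile 2 was not tested. A talin-2-like transcript of the adhesion list, an unc-79 homolog of the neural list and malic enzyme 3 of the metabolic list had r of 0.844, 0.921 and 0.879 but SDs under 1. They were 3 of the 89 long and expressed transcripts that reached the r of the 200 without their spread.

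Among the unnamed transcripts, the 10 highest r included all 3 of the counted transcripts of Locus_58. Transcript 17 of Locus_58 had the highest r of all, 0.995, and stood at 13.6, 2.38, 4.63 and 14.5 TMM-scaled CPM in juveniles 1 to 4 and at 15.6 and 19.8 in the adults. Transcripts 9 and 4 of that locus followed with r of 0.988 and 0.986. The remaining unnamed ones of the 10 were transcript 15 of Locus_6261, transcript 11 of Locus_109, transcript 9 of Locus_928, transcript 9 of Locus_266 and transcript 5 of Locus_5378, each with an r between 0.983 and 0.991. Of these, transcript 9 of Locus_266 was the most abundant per length, at 109 TMM-scaled CPM per kb.

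The 5 of the 200 with the highest mean CPM, not corrected for length, were transcripts 24 and 35 of Locus_688 and 3 from loci without a name. Transcript 14 of Locus_19441, of 729 nt, stood at 1552, 49.1, 208 and 990 TMM-scaled CPM in juveniles 1 to 4 and at 1170 and 790 in the adults. It spanned a wider range than those 2, 31.6-fold among the juveniles, and juvenile 1 was its highest animal. Transcript 22 of Locus_956 stood at 998, 114, 130 and 627 in the juveniles and at 1176 and 1061 in the adults, and juveniles 2 and 3 were nearly level. Transcript 9 of Locus_407, the longest of the 200 at 9299 nt, stood at 614, 72.5, 122 and 522 in the juveniles and at 909 and 1487 in the adults, with both adults above every juvenile.

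The 200 came from 166 loci, of which 139 gave 1 transcript, 21 gave 2 and 6 gave 3 or more. Locus_58, Locus_928, Locus_659, Locus_165 and Locus_6431 gave 3 each and Locus_560 gave 4. Each counted read matched 1 transcript only, but transcripts of 1 locus belong to the same assembled locus. They are therefore not taken as separate measurements. In Locus_659 the 3 transcripts had r between 0.932 and 0.967, and all 3 stood low in both juveniles 2 and 3. In Locus_165, transcript 6 was lower in juvenile 3, at 12.9, than in juvenile 2, at 21.5. In Locus_6431 the r were the lowest of these loci, 0.836 to 0.894, and adult 5 stood above the other animals for transcripts 4 and 13. In Locus_928, transcript 5 was the most abundant per length at 91.8 TMM-scaled CPM per kb.

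Of the 166 loci, 35 held another transcript that was long and expressed but not chosen, 71 transcripts in all. Their median r was 0.40, 19 had an r under 0, 41 had too small a spread and 4 reached the r of the 200. Summing the counts over a locus gave an r of at least the lower limit of the choice in 141 of the 166 loci and an r under 0.5 in 8. The 200 did not stand out by length or complexity of assembly. Their median length was 1795 nt against 1734 nt in the 3024 not chosen, and their median number of transcripts assembled per locus was 12 against 16.

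Most of the 200 spanned a narrower range than myosin. The slope of log2(CPM + 0.5) of a transcript on log2 CPM of the myosin locus had a median of 0.70. It ran from 0.44 to 1.96 and reached 1 for 16 transcripts. The added 0.5 lowers the slope of transcripts with few counts in juvenile 2, and its part in the slopes under 1 was not tested. The ratio of a transcript's counts to the myosin counts of the same library needs no scaling. It was highest in juvenile 3 for 95 of the 200 and in juvenile 2 for 71. The same ratio was lowest in juvenile 2 for 33 of the 200, in juvenile 3 for 7 and in adult 6 for 66. Transcript 24 of the actin locus had 72.1%, 241%, 74.7% and 70.3% of the myosin counts in juveniles 1 to 4, with 116% and 113% in the adults, so that this transcript was less far below the other animals in juvenile 2 than myosin was. It carries no name of its own, and the named transcript 49 of that locus was not low in juvenile 2. SERCA had 1.04%, 4.78%, 3.06% and 1.32% in the juveniles, with 1.28% and 1.21% in the adults. Smoothelin like 1 had 0.417%, 0.379%, 0.789% and 0.411% in the juveniles, with 0.297% and 0.186% in the adults, so that its ratio in juvenile 2, from 21 counts, lay within that of the other animals. The longer transcript 25 of the same locus did not do so, with 7.00% in juvenile 2, from 388 counts, against between 1.52% and 4.89% in the other animals.

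The labels allow 1 comparison, of the 4 juveniles with the 2 adults, which was fitted over all 9979 transcripts with enough counts. Of the 200, 160 were tested. The other 40 had under 3 CPM in more than 1 juvenile or in an adult, in 27 cases among the juveniles and in 20 in adult 6, some in both. By the quasi-likelihood test of edgeR with Benjamini-Hochberg adjustment, 0 of the 160 were called at an adjusted p under 0.05, and 0.00% of all tested transcripts were. At an unadjusted p under 0.05 there were 2 of the 160, against 8.30% of all tested. DESeq2 called 1 of the 160, against 1.90% of all tested, and the exact test of edgeR called 0 of the 160, against 0.110%. The lowest adjusted p among the 160 was 0.560.

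The median log2 fold change of the 160 was -0.52, juvenile over adult, beside a median of 0.11 over all tested, and 138 of them were under 0 against 4238 of 9979. With library totals alone the median of all tested moved up by 0.56 and that of the 160 stood at 0.10, so the sign of the latter depends on the scaling, while the gap between both medians was -0.63 with TMM and -0.58 without. Single libraries moved this gap more: it was -0.29 without juvenile 2, -1.13 without juvenile 1 and -1.26 without juvenile 4, where the last 2 tested only 68 of the 200, and between -0.78 and -0.60 with any other single animal left out. Abundant transcripts as a whole had negative values: at a mean of 100 TMM-scaled CPM or more the median was -0.91 for 25 of the 160 and -0.31 for all 1064 tested ones. The 160 share their profile by choice, and their fold changes are not separate pieces of evidence.

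The spread between juveniles was wide for these transcripts. The SD of log2 level over the 4 juveniles had a median of 1.59 for the 200, against 0.48 for all tested transcripts. The standard error (SE) of the log2 fold change had a median of 0.84 against 0.44. The rule asked for an SD of log2 CPM of at least 1 and for likeness to myosin, which spanned 22.9-fold among the juveniles. All tested transcripts passed no such filter on spread, so the choice itself brings about the wider spread and the larger SE. For filamin-C-like the log2 fold change was -1.48 ± 0.86 (SE), with an adjusted p of 0.584 by edgeR. Transcript 24 of the actin locus had -1.71 ± 0.85 and an adjusted p of 0.565 by the same test. SERCA had -0.93 ± 0.65 and smoothelin like 1 had -0.24 ± 0.99, with adjusted p of 0.646 and 0.951 by edgeR. None of these differences was called by this test at an adjusted p under 0.05, with 4 juveniles and 2 adults.

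**Figure D5:**
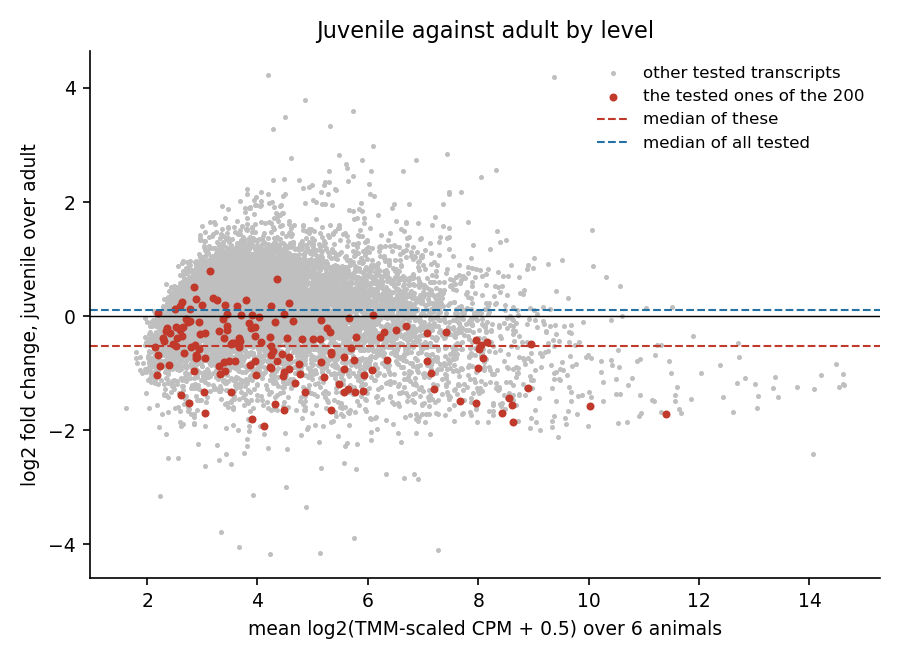
Each point is 1 of the 9979 tested transcripts, with its mean log2(TMM-scaled CPM + 0.5) over 6 animals on the x axis and its log2 fold change, juvenile over adult, on the y axis; the 160 tested ones of the 200 are red. The dashed lines are the medians, -0.52 for the 160 and 0.11 for all tested, and the cloud as a whole tilts below 0 at high levels.

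Both adults stood above all 4 juveniles for 28 of the 160, or 17.5%, against 8.55% of all tested transcripts. Both adults stood below all juveniles for 0 of the 160, against 12.3%. Since the adults were high in myosin, the choice itself bears on both counts, and nothing is read from these shares. From plain totals 2 of the 200 had both adults above all juveniles, against 35 with TMM. Juveniles 1 and 4 were both above both adults for 45 of the 200 with TMM and for 93 from plain totals. Both of them were above juveniles 2 and 3 for 188 with either scaling.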

How the data were processed

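The authors built TruSeq stranded mRNA libraries from RNA with an integrity number above 7.0, aligned reads with HISAT2 (no version is given in the sources used here) to a transcriptome assembled from wild animals, counted only unique matches and tested with edgeR 3.20.9. The deposited values are raw counts per assembled transcript, 1 column per animal, and were used as they stand. Members and lists were chosen with earlier results of these data known. Members were chosen from CPM on column totals with a pseudocount of 0.5. Names came from the study's supplement only, and its values were not used. The reference sequences were not used here, so no sequence is shown. Levels are CPM on TMM-scaled totals. The comparison of juveniles with adults used edgeR 4.0.16 (glmQLFit and glmQLFTest, TMM, R 4.3.3) without covariates, keeping transcripts that reached 3 CPM in both adults and no fewer than 3 juveniles. DESeq2 1.42.0, edgeR's exact test, other scalings and filters, locus sums and leaving out each animal were alternatives. The fit and the choice were tested on simulated data. Transcripts described by name were all those with a name or in a named locus, the 10 of highest r, the 5 of highest mean CPM, 3 on either side of the limit, loci with 3 or more members, and the muscle list. Nothing says that animals of a group were raised apart, so p-values measure the spread between these animals.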

Additional observations from a re-analysis of the deposited data

Results flagged for a closer look

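Within the 4 juveniles, 47 results were looked at for a value far from the others: the myosin locus, the median of the 200 transcripts and each named transcript. Transcript 8 of Locus_846, which lay just outside the 200, was the only one past the limit. Its juvenile 2, at 0.44 TMM-scaled CPM or 10 counts, lay far below the 6.57 to 8.47 of the other juveniles, with a gap of 0.894 of the whole range on the log2 scale, past Dixon's critical ratio for groups of 4. Chance flags about 1 in 20 such groups. Of the 200 themselves, 1 was past this limit.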

How the results depend on the processing

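The choice of the 200 depended most on juvenile 2: leaving out 1 animal at a time, between 69 and 166 were chosen again, with the lowest number without juvenile 2. Without juveniles 2 and 3 it was 3, and with a mean CPM of at least 10 it was 129. The other 7 changes to the rule, in scaling, pseudocount, measure of likeness, reference and filters, chose between 139 and 184 again. Of all tested transcripts, edgeR's quasi-likelihood test called 0, and 828 had an unadjusted p under 0.05; DESeq2 called 190, the exact test 11, and the quasi-likelihood test without a filter on low counts 7. The other settings, including each animal left out, called 0. The median log2 fold change of the tested ones of the 200, -0.52 in the report, was between -1.17 and -0.22 with 1 animal left out, and 0.10 with library totals alone. With juvenile 1, 3 or 4 left out only 68 of the 200 were tested, since all 3 remaining juveniles then had to reach 3 CPM. Over 39 named transcripts, 31 of 474 alternative values had the opposite sign, 10 of them with library totals alone, and 4 moved by more than the SD between animals. No paired analysis was possible because juveniles were numbered 1 to 4 and adults 5 and 6 and so share no number. With 2 adults and 4 juveniles the precision is limited by the number of animals, and for 41 of the 200 also by counts under 10 in juvenile 2.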

Other observations

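The following transcripts were picked after their values had been seen. The 2 of the 200 with an unadjusted p under 0.05 between juveniles and adults were transcript 1 of Locus_16650 and transcript 5 of Locus_4094, both unnamed. Transcript 1 of Locus_16650 stood at 21.1, 6.79, 13.7 and 22.8 TMM-scaled CPM in juveniles 1 to 4 and at 63.2 and 37.8 in the adults, above every juvenile. Its log2 fold change, juvenile over adult, was -1.65 ± 0.50 (SE) with an adjusted p of 0.560 by edgeR's quasi-likelihood test, 0.387 by the exact test of edgeR and 0.0419 by DESeq2, the one call that DESeq2 made among the 200. From plain totals adult 6 was below juvenile 4, at 22.1 against 30.2 CPM. Transcript 5 of Locus_4094 stood at 321, 79.9, 109 and 274 in the juveniles and at 518 and 603 in the adults.

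Transcript 2 of Locus_5939, unnamed and of 788 nt, had the steepest slope on myosin. It had 3418, 0, 17 and 8503 counts in juveniles 1 to 4, with 4749 and 782 in the adults, so that juveniles 2 and 3 had almost none of it.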
